A study of Homo sapiens with 27 samples.

Results

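Protein kinase A subunits and PDE4 phosphodiesterases were followed as RNA in 3 human acute myeloid leukaemia (AML) cell lines. The set held 9 of the 57992 genes in the deposited table, taken by gene symbol. It comprised 4 regulatory subunits of protein kinase A (PKA), 2 catalytic subunits and 3 cyclic AMP phosphodiesterases of the PDE4 family. The set was chosen by measured values of these same libraries, namely the difference of PRKAR2B between hairpins in MV411 and the difference of PDE4B between lines. Those values are therefore given as descriptions without a test. All 9 genes passed the filter on low counts in every comparison.

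PKA is the main receptor for cyclic AMP. Without cyclic AMP, a pair of regulatory subunits holds a pair of catalytic subunits inactive, and cyclic AMP bound to the regulatory subunits frees the kinase. Type I regulatory subunits are mostly cytosolic, type II subunits are tethered to membranes by A-kinase anchoring proteins, and PDE4 enzymes end the signal by hydrolysing cyclic AMP.

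The lines were MOLM-13, MV411 and SKNO1, and each was infected with a constitutive lentivirus carrying an shRNA (a short hairpin RNA that lowers its target's transcript). Each line had 3 groups of 3 replicates, namely CARM1 hairpin 1, CARM1 hairpin 2 and a scramble hairpin, which gave 27 libraries. CARM1, also named PRMT4, is a protein arginine methyltransferase. RNA was taken on day 3, and all 9 SKNO1 libraries, scramble included, came from medium with 10 ng/mL of the cytokine GM-CSF, whereas the other lines had no listed supplement. The labels do not say whether replicates were separate cultures or infections, so p-values measure the spread between these samples, which may be technical. Every comparison with scramble within a line used the same 3 scramble libraries, so the results of both hairpins are not independent.

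Levels are given in CPM, counts scaled to the library total after correction by the trimmed mean of M-values (TMM) over all 27 libraries. Levels of different genes are compared only as CPM per kilobase of exon. Fold changes are log2, first-named group over the second, with the standard error (SE) of the fit. A gene was called where its adjusted p was below 0.05 (edgeR quasi-likelihood test, Benjamini-Hochberg over all genes tested). In bulk RNA, fewer cells of a kind and less RNA per cell cannot be told apart.

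Library totals ranged from 25063577 to 53291599 expected counts. CARM1 averaged 4.75 ± 1.65, 6.10 ± 0.27 and 7.54 ± 1.63 CPM with hairpin 1 in MOLM-13, MV411 and SKNO1. With hairpin 2 it averaged 3.999 ± 1.07, 3.03 ± 0.63 and 2.76 ± 0.09 CPM in the same order of lines, against 24.5 ± 4.1, 23.3 ± 0.6 and 17.8 ± 2.0 CPM with scramble (SD, n = 3 each). Every hairpin library lay below every scramble library of its line. Summed levels of 8 myeloid markers ranged from 621 to 5668 CPM, while the 5 erythroid and the 4 fibroblast markers were each under 1 CPM in all libraries. Of the myeloid markers, LYZ ran from 8.98 to 5027 CPM and MPO from 1.5 to 4822 CPM, while CD34 was at most 0.156 CPM. Summed B cell and T cell markers reached at most 1.62 and 2.15 CPM, epithelial markers 18.4 CPM and megakaryocyte markers 58.2 CPM. HOXA9 and MEIS1 together had 57.5 to 138 CPM in MOLM-13 and MV411 and at most 0.0262 CPM in SKNO1. Mitochondrial ribosomal RNA took 22.9% to 34.9% of counts in MOLM-13 and MV411 and at most 0.429% in SKNO1. RNA make-up also moved with knockdown. In MV411 this share was 29.4% to 34.9% in the 6 knockdown libraries, against 24.9% to 27.8% with scramble. In SKNO1, RN7SK, RPPH1, RMRP and the RN7SL genes took 23.2% to 28.7% in the 6 knockdown libraries, against 17.65% to 19.85% with scramble. With these structured RNAs and mitochondrial ribosomal RNA left out of the fit, the number of the 9 genes called was the same in each comparison. Summed myeloid markers in MV411 were 984 to 1280 CPM with hairpin 1 and 1335 to 1944 CPM with hairpin 2, against 621 to 1079 CPM with scramble, and their part in the MV411 results was not tested.

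One pair of MOLM-13 libraries lay on the other hairpin's side for genes that differ between the hairpins in the other lines. In both MV411 and SKNO1, 262 genes were higher and 364 lower with hairpin 2 than with hairpin 1, the 9 genes described here left out. The mean log2 level of the higher set minus that of the lower set was computed per library. Each level was taken relative to the mean of the line's knockdown libraries. In MOLM-13, which took no part in choosing these genes, the library labelled hairpin 1 replicate 1 had 0.75, against -0.67 and -0.59 in the other 2 libraries labelled hairpin 1. The library labelled hairpin 2 replicate 1 had -0.59, against 0.16 and 0.94 in the other 2 labelled hairpin 2. Scramble libraries of MOLM-13 had -0.89, -0.92 and -1.27, so a negative value is not particular to hairpin 1. CARM1 was at 2.84 CPM in the library labelled hairpin 1 replicate 1, against 5.82 and 5.57 CPM in the other 2, and at 4.88 CPM in the library labelled hairpin 2 replicate 1, against 4.31 and 2.80 CPM in the other 2. The labels were kept, and most MOLM-13 fold changes and counts below are given with and without this pair of libraries, a choice made after the data were seen. Without the pair, 3.85% of all genes tested were called with hairpin 1, 9.44% with hairpin 2 and 9.88% with the hairpins pooled.

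**Figure D1:**
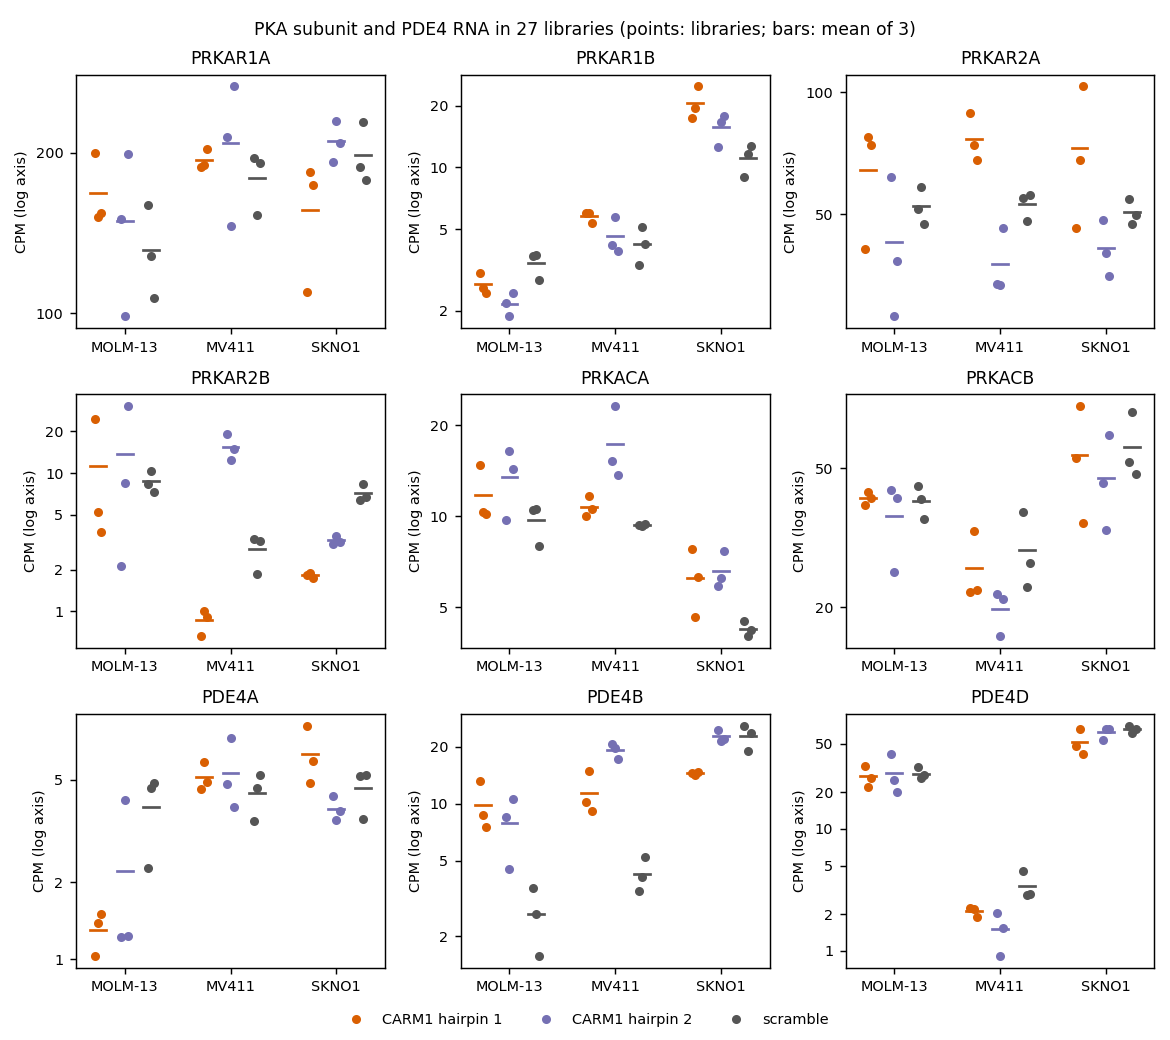
RNA level of each gene in CPM (log axis) in 27 libraries, by line and hairpin. Points are libraries in the order of their replicate numbers and bars are means of 3. PRKAR2B runs from 0.658 CPM in MV411 with hairpin 1 to 30.7 CPM in a MOLM-13 library labelled hairpin 2, and PDE4D is at most 4.49 CPM in MV411 and at least 20.1 CPM in the other lines.

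PRKAR2B encodes RII beta, a type II regulatory subunit, and lies at chr7:107044649-107161811 on the plus strand (GENCODE 29, GRCh38). Its start region is shown because this gene moved most. The RefSeq window (GRCh38.p14, chr7:107044455-107044754, plus strand) covers 250 bases before and 50 after the annotated start. The capitals mark TCACGTG, which begins 138 bases before the start.

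PRKAR2B: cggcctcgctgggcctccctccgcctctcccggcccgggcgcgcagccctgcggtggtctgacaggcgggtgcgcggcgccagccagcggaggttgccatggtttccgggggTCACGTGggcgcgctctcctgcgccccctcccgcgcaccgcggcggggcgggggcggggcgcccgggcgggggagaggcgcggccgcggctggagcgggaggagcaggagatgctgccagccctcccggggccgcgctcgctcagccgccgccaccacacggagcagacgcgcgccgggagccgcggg

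TCACGTG was searched on both strands after this sequence had been read, and 3.71% of the 35116 windows of the same length hold it. It shares the letters ACGT with the motif searched next. Among the 39 windows of the 9 genes, PRKAR2B's was the only one with it.

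TGACGTCA, the palindrome known as the cyclic AMP response element, was searched in the same way and occurs in 1.85% of the 35116 windows. Among the 9 genes it lies in 2 overlapping windows of PRKAR1A, which hold the same site, and in 1 of 5 windows of PDE4A. These windows are shown because a factor that PKA activates, CREB, is known to bind this motif. The PRKAR1A window is chr17:68512180-68512479 and the PDE4A window chr19:10416523-10416822, both on the plus strand of GRCh38.p14. The site begins 49 bases before the start in PRKAR1A and 3 bases before it in PDE4A, and capitals mark it.

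PRKAR1A: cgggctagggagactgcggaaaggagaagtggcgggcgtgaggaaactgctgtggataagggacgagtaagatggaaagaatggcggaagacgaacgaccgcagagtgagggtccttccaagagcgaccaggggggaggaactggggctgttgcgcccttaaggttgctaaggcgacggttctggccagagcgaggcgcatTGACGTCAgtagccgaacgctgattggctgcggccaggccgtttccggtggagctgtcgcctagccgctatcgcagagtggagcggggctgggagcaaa
PDE4A: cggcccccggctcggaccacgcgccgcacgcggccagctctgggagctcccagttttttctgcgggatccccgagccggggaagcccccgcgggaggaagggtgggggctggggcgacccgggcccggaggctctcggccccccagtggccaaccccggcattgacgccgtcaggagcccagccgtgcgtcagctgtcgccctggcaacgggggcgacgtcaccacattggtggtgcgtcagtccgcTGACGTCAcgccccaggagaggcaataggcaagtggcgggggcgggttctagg

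These matches are descriptions of the windows and say nothing of binding in these cells.

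Per kilobase, PRKAR1A was the most abundant of the 9 genes in scramble libraries of all 3 lines. Encoding the type I subunit RI alpha, it had 19.3 ± 3.9, 26.3 ± 3.4 and 29.04 ± 3.90 CPM per kb in MOLM-13, MV411 and SKNO1 scramble libraries (SD, n = 3 each). PRKAR2A, which encodes the type II subunit RII alpha, followed with 7.88 ± 0.86, 7.96 ± 0.64 and 7.60 ± 0.56 CPM per kb, and its 3 lines overlapped. PRKACB, the catalytic subunit C beta, had 5.996 ± 0.655, 4.32 ± 1.13 and 8.54 ± 1.93 CPM per kb. In SKNO1 its mean lay above that of PRKAR2A. PRKACA, the catalytic subunit C alpha, was lower per kilobase than PRKACB in each line, with 1.58 ± 0.24, 1.53 ± 0.01 and 0.690 ± 0.039 CPM per kb. PRKACB made up 79.2% ± 1.3, 73.3% ± 4.8 and 92.3% ± 1.7 of summed catalytic RNA per kilobase in those scramble groups.

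Values of scramble libraries between lines are descriptions. PDE4D had 66.0 ± 4.3 CPM in SKNO1, 28.5 ± 3.1 CPM in MOLM-13 and 3.42 ± 0.93 CPM in MV411, with no overlap between any of the 3. SKNO1 exceeded MV411 19.3-fold. PRKAR1B, the type I subunit RI beta, had 11.1 ± 2.0 CPM in SKNO1, against 3.42 ± 0.52 CPM in MOLM-13 and 4.22 ± 0.90 CPM in MV411, and these last 2 lines overlapped. PRKACA was lower in SKNO1, at 4.24 ± 0.24 CPM, than in MOLM-13 at 9.698 ± 1.502 CPM or MV411 at 9.37 ± 0.07 CPM. PDE4A overlapped between all 3 lines (SD, n = 3 each).

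PRKAR2B, one of the values that chose the set, had 0.658, 1.00 and 0.914 CPM in the 3 MV411 hairpin 1 libraries. The MV411 hairpin 2 libraries had 19.2, 12.5 and 15.02 CPM, against 3.33, 1.86 and 3.23 CPM in scramble. The 3 groups did not overlap: hairpin 1 lay below scramble and hairpin 2 above it. The log2 fold change over scramble was -1.71 ± 0.29 with hairpin 1 and 2.45 ± 0.26 with hairpin 2, and hairpin 2 over hairpin 1 gave 4.16 ± 0.30 (SE). In that contrast 11.5% of all genes tested passed the threshold, and no test of the 9 genes was read from it.

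In SKNO1, PRKAR2B fell with both hairpins. It had 1.83, 1.90 and 1.74 CPM with hairpin 1 and 3.07, 3.52 and 3.16 CPM with hairpin 2, against 6.39, 8.32 and 6.76 CPM with scramble. None of the 3 groups overlapped. The log2 fold change was -1.98 ± 0.20 with hairpin 1 (adjusted p = 0.0035) and -1.15 ± 0.19 with hairpin 2 (adjusted p = 0.0034). Hairpin 2 stood above hairpin 1 by 0.83 ± 0.20 (adjusted p = 0.021), although this call was lost when 1 library was left out in 4 of 9 cases, with adjusted p up to 0.0881. With the hairpins pooled, PRKAR2B was at -1.51 ± 0.25 over scramble and did not pass (adjusted p = 0.059), while it passed with hairpins as separate groups (adjusted p = 0.000965), with DESeq2 and with no filter.

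In MOLM-13, PRKAR2B was spread too widely within the labelled groups for a call. Libraries labelled hairpin 1 had 24.7, 5.21 and 3.74 CPM and those labelled hairpin 2 had 2.12, 8.40 and 30.7 CPM, against 8.37, 10.4 and 7.31 CPM in scramble. Both knockdown groups had libraries above and below the scramble range. Over scramble, the log2 fold change was 0.36 ± 0.84 with hairpin 1 (adjusted p = 0.85) and 0.66 ± 0.84 with hairpin 2 (adjusted p = 0.63). Without the 2 hairpin libraries of replicate 1 it turned to -0.97 ± 0.47 with hairpin 1 (adjusted p = 0.28) and became 1.17 ± 0.44 with hairpin 2 (adjusted p = 0.13). Hairpin 2 over hairpin 1 was then 2.14 ± 0.52 (adjusted p = 0.30), against 0.30 ± 0.84 with all libraries, and neither passed.

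PRKAR2A, the other type II gene, lies at chr3:48744597-48847846 on the minus strand. Between hairpins in MV411 it lay on the other side of scramble from PRKAR2B, given as a description since that contrast chose the set. It had 88.6, 73.9 and 67.9 CPM with hairpin 1 and 33.5, 33.4 and 46.1 CPM with hairpin 2, against 54.8, 48.0 and 55.9 CPM with scramble. The 3 groups did not overlap. With hairpin 2 it fell by 0.51 on the log2 scale (SE 0.16, adjusted p = 0.045), and this call was lost in 7 of 9 fits that left out 1 library, with adjusted p up to 0.186, and under another scaling (adjusted p = 0.0518). With hairpin 1 it was at 0.53 ± 0.16 (adjusted p = 0.078), and it passed only with the replicate numbers as a block (adjusted p = 0.0378), with DESeq2 (adjusted p = 0.0296), or without hairpin 2 replicate 3 (adjusted p = 0.0416). Part of its exons, 275 bases, overlaps PRKAR2A-AS1 on the opposite strand, and the strand setting of the authors' counting is not given in the sources used here.

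SKNO1 showed the same order for PRKAR2A with overlapping groups. It had 46.1, 68.2 and 104 CPM with hairpin 1 and 48.3, 40.1 and 35.3 CPM with hairpin 2, against 54.5, 47.2 and 49.8 CPM with scramble. Hairpin 2 over hairpin 1 was -0.82 ± 0.25 and did not pass (adjusted p = 0.056), but it passed without the hairpin 1 library of replicate 1 (adjusted p = 0.00852), with no filter (adjusted p = 0.00136) and with DESeq2 (adjusted p = 0.0211). In MOLM-13, libraries labelled hairpin 1 had 40.9, 77.7 and 74.1 CPM and those labelled hairpin 2 had 61.9, 28.0 and 38.2 CPM, against 51.4, 58.4 and 47.2 CPM with scramble. Hairpin 2 over hairpin 1 was -0.56 ± 0.30 with all libraries (adjusted p = 1.00) and -1.18 ± 0.20 without the 2 hairpin libraries of replicate 1 (adjusted p = 0.23). Relative to the mean of each line, log2 levels of PRKAR2A and PRKAR2B had a Pearson r of -0.68 over 27 libraries, which share lines, controls and scaling.

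As a share of type II RNA per kilobase, PRKAR2B was 1.73% ± 0.52 with hairpin 1 and 38.9% ± 7.0 with hairpin 2 in MV411, against 7.45% ± 1.59 with scramble (SD, n = 3 each). In SKNO1 the share was 4.13% ± 1.62 with hairpin 1 and 10.97% ± 1.79 with hairpin 2, against 18.0% ± 3.1 with scramble. MOLM-13 libraries labelled hairpin 1 ranged from 7.21% to 48.1% and those labelled hairpin 2 from 5.01% to 55.2%, against 19.3% to 21.5% with scramble. Without the pair, the shares were 9.35% and 7.21% in libraries labelled hairpin 1 and 31.6% and 55.2% in those labelled hairpin 2. Both of the MOLM-13 libraries labelled replicate 1 lay at an end of these ranges, at 48.1% for hairpin 1 and 5.01% for hairpin 2. Each range is of only 3 libraries, so this adds nothing on the labels.

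**Figure D2:**
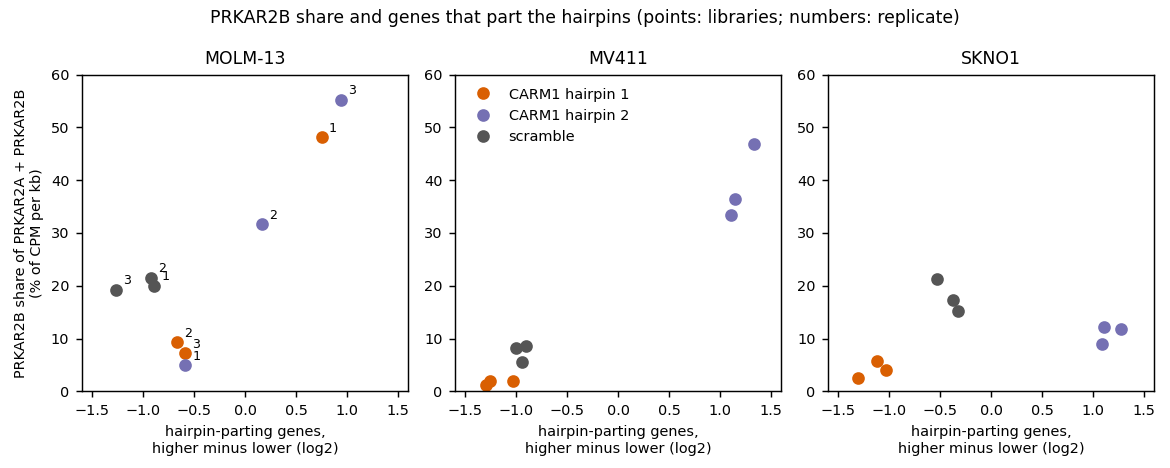
PRKAR2B as a percentage of summed PRKAR2A and PRKAR2B RNA per kilobase (vertical axis), against the log2 difference between genes higher and lower with hairpin 2 than hairpin 1 in both MV411 and SKNO1 (horizontal axis). Points are libraries, and numbers in the MOLM-13 panel are replicates. MV411 and SKNO1 chose the genes of the horizontal axis, so the parting of hairpins along it in those panels was fixed in advance. PRKAR2B's difference between hairpins in MV411 also chose the set. The library labelled hairpin 1 replicate 1 lies at 0.75 and 48.1%, and the one labelled hairpin 2 replicate 1 at -0.59 and 5.01%.

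Neither type I subunit was called. PRKAR1A, at chr17:68511780-68551319 on the plus strand, passed in no comparison tested, and its hairpin libraries ranged from 98.5 to 267 CPM, against 107 to 228 CPM in scramble libraries. PRKAR1B, at chr7:549197-727650 on the minus strand, had 17.5, 19.5 and 24.95 CPM with hairpin 1 and 12.6, 16.6 and 17.8 CPM with hairpin 2 in SKNO1, against 8.95, 11.6 and 12.8 CPM with scramble. Hairpin 1 libraries lay above all scramble libraries and hairpin 2 libraries overlapped them. Its log2 fold change with hairpin 1 was 0.88 ± 0.21 and did not pass (adjusted p = 0.084), whereas it passed with DESeq2 (adjusted p = 0.00539), with no filter (adjusted p = 0.00731) and with the replicate numbers as a block (adjusted p = 0.0186). In MOLM-13 it lay on the other side of scramble, with 2.19, 1.87 and 2.44 CPM in libraries labelled hairpin 2, all below the 3.70, 3.73 and 2.81 CPM of scramble. The log2 fold change there was -0.63 ± 0.24 (adjusted p = 0.12), and -0.65 ± 0.29 without the pair (adjusted p = 0.19). Of PRKAR1B's exons, 383 bases overlap DNAAF5 on the opposite strand.

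Of the catalytic subunits, PRKACA (chr19:14091688-14118084, minus strand) rose in the 3 lines combined, where 1 of the 7 genes not used to choose the set was called, against 19.9% of all genes tested. The fit, with line as a term, compared 18 knockdown with 9 scramble libraries and gave 0.52 ± 0.13 (adjusted p = 0.0050). The call held in all 27 fits that left out 1 library and without the 2 MOLM-13 libraries of replicate 1, where the value was 0.53 ± 0.13 (adjusted p = 0.0070). In MV411 PRKACA had 10.1, 11.7 and 10.6 CPM with hairpin 1 and 15.2, 23.2 and 13.7 CPM with hairpin 2, against 9.35, 9.32 and 9.44 CPM with scramble. All 6 knockdown libraries lay above scramble. It rose with hairpin 2, by 0.87 ± 0.20 (adjusted p = 0.013), and was at 0.19 ± 0.20 with hairpin 1 (adjusted p = 0.69).

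SKNO1 also had all 6 knockdown libraries above scramble for PRKACA, at 7.83, 4.65 and 6.28 CPM with hairpin 1 and 5.88, 6.26 and 7.71 CPM with hairpin 2, against 4.50, 4.02 and 4.197 CPM. Neither hairpin passed there, with 0.55 ± 0.21 for hairpin 1 (adjusted p = 0.22) and 0.63 ± 0.21 for hairpin 2 (adjusted p = 0.075). MOLM-13 had 14.8, 10.4 and 10.2 CPM in libraries labelled hairpin 1 and 9.73, 16.5 and 14.4 CPM in those labelled hairpin 2, against 10.5, 10.6 and 7.96 CPM with scramble, and the groups overlapped. Its log2 fold change was 0.27 ± 0.24 with hairpin 1 (adjusted p = 0.56) and 0.50 ± 0.24 with hairpin 2 (adjusted p = 0.20). Without the pair these were 0.07 ± 0.20 (adjusted p = 0.90) and 0.68 ± 0.20 (adjusted p = 0.065). PRKACB (chr1:84078062-84238498, plus strand) was not called in any comparison tested, and was at -0.58 ± 0.22 with hairpin 2 in MV411 (adjusted p = 0.095). There it had 21.8, 16.5 and 21.0 CPM with hairpin 2, against 37.5, 22.8 and 26.8 CPM with scramble. PRKACB was at -0.73 and passed without scramble replicate 2 (adjusted p = 0.0478), and it passed with no filter on low counts (adjusted p = 0.0159), but not with the replicate numbers as a block (adjusted p = 0.0785).

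GC content of transcripts moved with some of these levels. Libraries differed in the log2 level of genes in the upper GC quartile minus that of genes in the lower one, relative to the line's mean, from -0.674 to 0.606. Across 27 libraries this measure had a Pearson r of 0.51 with PRKACA, 0.46 with PRKAR1B and 0.41 with PDE4A. Its r was -0.62 with PRKAR1A, -0.54 with PRKACB, -0.37 with PDE4D, -0.26 with PRKAR2B, -0.06 with PDE4B and -0.01 with PRKAR2A. The MV411 hairpin 2 library with the highest PRKACA, replicate 2 at 23.2 CPM, had 0.472 on it. Without that library PRKACA's call with hairpin 2 held, as it did in every other fit that left out 1 MV411 library, with log2 fold changes from 0.59 to 1.02 and adjusted p up to 0.0479. No GC correction was run, and the part of GC content in these results, that of PRKACA included, was not tested.

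PDE4B (chr1:65792514-66374579, plus strand), whose differences chose the set, is described without tests. In scramble libraries it had 25.9, 18.9 and 23.5 CPM in SKNO1, against 3.62, 2.64 and 1.58 CPM in MOLM-13 and 3.46, 4.13 and 5.25 CPM in MV411. SKNO1 did not overlap the other lines. MOLM-13 had 13.2, 8.77 and 7.56 CPM in libraries labelled hairpin 1 and 8.51, 4.53 and 10.7 CPM in those labelled hairpin 2. In MV411 it had 10.2, 14.8 and 9.17 CPM with hairpin 1 and 20.6, 19.8 and 17.2 CPM with hairpin 2. All 12 knockdown libraries of those lines lay above their scramble libraries.

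The PDE4B log2 fold changes over scramble were 1.92 ± 0.39 with hairpin 1 and 1.62 ± 0.38 with hairpin 2 in MOLM-13, and 1.40 ± 0.22 and 2.14 ± 0.22 in the same order in MV411 (SE). Without the 2 MOLM-13 libraries of replicate 1 they were 1.63 ± 0.41 with hairpin 1 and 1.55 ± 0.41 with hairpin 2. In SKNO1 it had 14.5, 14.2 and 14.8 CPM with hairpin 1, below all scramble libraries, and 24.4, 21.6 and 22.1 CPM with hairpin 2, overlapping them. Its log2 fold changes there were -0.66 ± 0.16 with hairpin 1 and -0.02 ± 0.16 with hairpin 2.

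**Figure D3:**
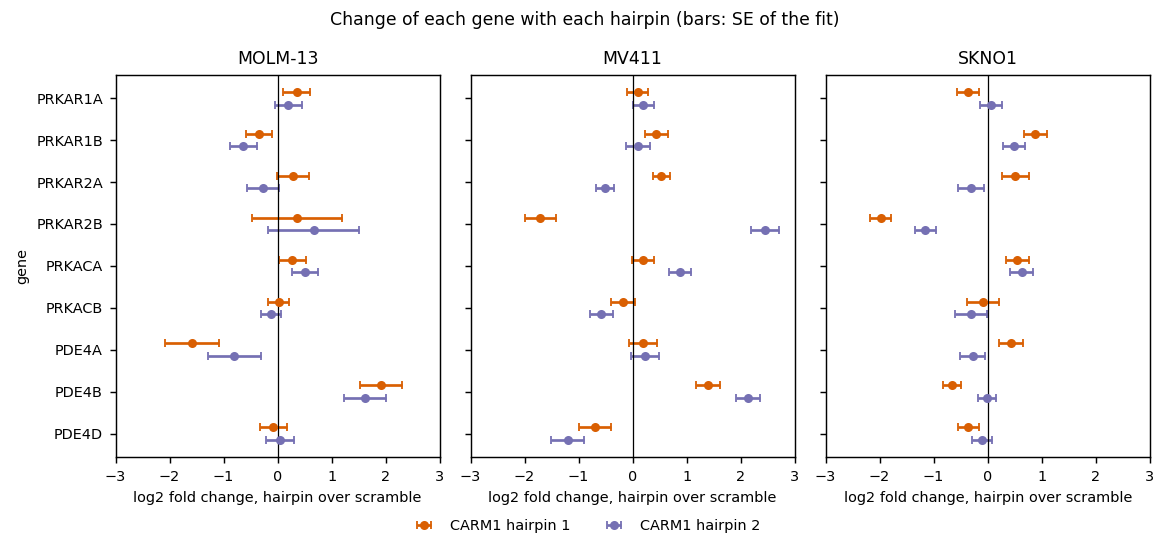
Log2 fold change over scramble of each gene with each CARM1 hairpin in 3 lines. Points are estimates of the fit with their SE, and both hairpins of a line share its 3 scramble libraries. PRKAR2B lies at -1.71 with hairpin 1 and 2.45 with hairpin 2 in MV411 and below 0 with both in SKNO1, and PDE4B lies between 1.40 and 2.14 in MOLM-13 and MV411.

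PDE4D, at chr5:58969038-60522120 on the minus strand, encodes a cyclic AMP phosphodiesterase. It had 2.24, 2.22 and 1.89 CPM with hairpin 1 and 2.06, 0.908 and 1.54 CPM with hairpin 2 in MV411, against 4.49, 2.85 and 2.92 CPM with scramble. All 6 knockdown libraries were lower than scramble. It fell with hairpin 2, by -1.20 ± 0.30 (adjusted p = 0.019), a call lost without scramble replicate 1 (-0.97, adjusted p = 0.065), and was at -0.70 ± 0.29 with hairpin 1 (adjusted p = 0.21). Counts there were low, from 23 to 135 expected counts per library. In SKNO1 it had 41.3 to 66.0 CPM with hairpin 1 and 53.3 to 66.5 CPM with hairpin 2, against 61.8 to 70.3 CPM with scramble, and it was not called. In MOLM-13 it was at -0.08 ± 0.26 with hairpin 1 (adjusted p = 0.89) and 0.04 ± 0.25 with hairpin 2 (adjusted p = 0.93). Without the pair these were -0.25 ± 0.18 (adjusted p = 0.49) and -0.32 ± 0.18 (adjusted p = 0.29). Over the 3 lines combined it was at -0.36 ± 0.14 (adjusted p = 0.071), and it passed without the 2 MOLM-13 libraries of replicate 1, at -0.46 ± 0.13 (adjusted p = 0.014).

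PDE4A (chr19:10416773-10469631, plus strand) had 1.03, 1.39 and 1.497 CPM in MOLM-13 libraries labelled hairpin 1 and 1.22, 4.15 and 1.23 CPM in those labelled hairpin 2, against 2.27, 4.62 and 4.87 CPM with scramble. Only the library labelled hairpin 2 replicate 2 lay within the scramble range. Its log2 fold change was -1.59 ± 0.51 in libraries labelled hairpin 1 (adjusted p = 0.094) and -0.80 ± 0.49 in those labelled hairpin 2 (adjusted p = 0.31). Without the pair these were -1.45 ± 0.55 (adjusted p = 0.18) and -0.53 ± 0.53 (adjusted p = 0.56). With both hairpins pooled it was at -1.14 ± 0.44 and did not pass (adjusted p = 0.099), whereas it passed with limma-voom (adjusted p = 0.0483). Without the library labelled hairpin 2 replicate 2 it passed, at -1.62 (adjusted p = 0.00344), and without the 2 libraries of replicate 1 it was at -0.91 (adjusted p = 0.25). The library labelled hairpin 2 replicate 2 had 0.397 on the GC measure, the highest of MOLM-13. In MV411 and SKNO1 PDE4A was not called over scramble.

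Per kilobase, PDE4B was 59.0% ± 3.6 of summed PDE4A, PDE4B and PDE4D RNA with hairpin 1 and 71.6% ± 4.4 with hairpin 2 in MV411, against 35.8% ± 2.6 with scramble (SD, n = 3 each). In MOLM-13 it was 37.7% ± 4.8 in libraries labelled hairpin 1 and 30.9% ± 14.0 in those labelled hairpin 2, against 11.4% ± 4.2 with scramble. Without the pair it was 39.3% and 32.3% in libraries labelled hairpin 1 and 19.5% and 46.5% in those labelled hairpin 2. In SKNO1 it was 29.2% ± 3.9 with hairpin 1 and 37.6% ± 3.7 with hairpin 2, against 35.6% ± 1.7 with scramble. PDE4D was the largest part in MOLM-13 and SKNO1 scramble libraries, at 66.1% ± 5.4 and 55.0% ± 2.8, and PDE4A in those of MV411, at 48.4% ± 4.4.

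**Figure D4:**
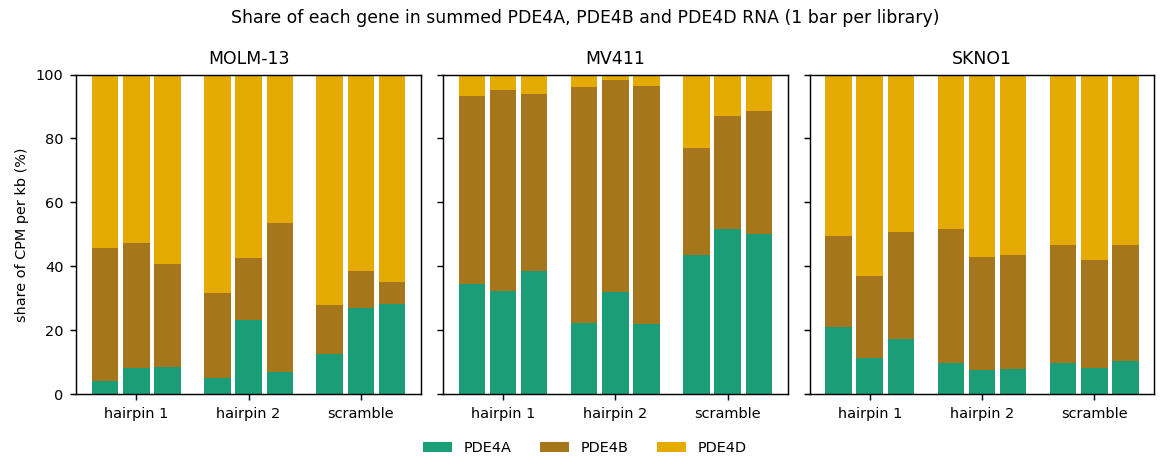
Share of PDE4A, PDE4B and PDE4D in their summed RNA per kilobase (%), 1 bar per library in replicate order, for 3 lines. PDE4B takes 55.5% to 74.5% of each MV411 knockdown library, against 33.5% to 38.6% in MV411 scramble, and PDE4D takes 48.5% to 63.0% of each SKNO1 library.

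Counts of called genes are set beside those over all genes. With hairpin 2 in MV411, 3 of the 7 eligible genes were called (PRKACA, PRKAR2A and PDE4D), against 18.6% of all genes tested. In SKNO1, 1 of 8 was called with hairpin 1, against 0.532% of all genes, 1 of 8 with hairpin 2, against 11.2%, and 1 of 8 between the hairpins, against 9.52%, and it was PRKAR2B each time. By edgeR none of the 8 eligible genes was called in MOLM-13 with hairpin 1, with hairpin 2, with both pooled or between hairpins, where 6.38%, 9.42%, 15.6% and 0% of all genes were called. In those 4 comparisons 1, 1, 2 and 0 of the 8 had an unadjusted p under 0.05, DESeq2 called 1, 0, 0 and 0, and limma-voom called 0, 0, 1 and 0. By edgeR none of 7 was called with hairpin 1 in MV411 (6.51% of all genes) or with hairpins pooled in MV411 (5.43%), and none of 8 with hairpins pooled in SKNO1 (0.0434%). In those 3 comparisons 2, 2 and 3 genes had an unadjusted p under 0.05, DESeq2 called 1 in each, and limma-voom called none. The counts of 1 in 8 with hairpin 2 and between hairpins in SKNO1, and of 1 in 7 in the lines combined, lie near or below the background, and no result about the set is read from them.

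Other genes of cyclic AMP signalling were taken from lists of 118 genes (adenylyl cyclases and G proteins, other phosphodiesterases, receptors coupled to Gs, anchoring proteins, PKA inhibitors, other effectors, CREB factors and CREB targets). With hairpin 2, 12 rose and 8 fell of 83 tested in MV411, which is 24.1%, against 18.6% of all genes, and 18 rose and 3 fell of 90 in SKNO1, which is 23.3%, against 11.2%. With hairpin 1, 6 rose and 5 fell of 83 in MV411 (13.3%, against 6.51% of all genes). By edgeR none of 90 passed with hairpin 1 in SKNO1, where 17 had an unadjusted p under 0.05 and 0.532% of all genes passed. In MOLM-13, 5 rose and 3 fell of 82 in libraries labelled hairpin 1 (9.76%, against 6.38%) and 6 rose and 4 fell in those labelled hairpin 2 (12.2%, against 9.42%). Without the pair, 4 rose and 3 fell of 83 with hairpin 1 (8.43%, against 3.85% of all genes) and 9 rose and 4 fell with hairpin 2 (15.7%, against 9.44%). These shares are descriptions, and nothing particular to the lists is read from them.

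The 22 CREB targets are a list of genes known to respond to that factor. With hairpin 1, 3 rose and 1 fell of 17 tested in MOLM-13 and 5 rose and 1 fell of 16 in MV411. There 6.38% and 6.51% of all genes were called. Of 15 in SKNO1 none passed by edgeR and 3 had an unadjusted p under 0.05, where 0.532% of all genes were called. With hairpin 2, 3 rose and 1 fell of 17 in MOLM-13, 2 rose and 1 fell of 16 in MV411, and 5 of 15 rose in SKNO1. Of all genes, 9.42%, 18.6% and 11.2% were called there, in the same order of lines. Without the pair, 4 rose and 1 fell of 17 in MOLM-13 with each hairpin, where 3.85% (hairpin 1) and 9.44% (hairpin 2) of all genes were called. No result about the list is read from these counts. The median log2 fold change of the list was 0.47 and 0.51 in MOLM-13, 0.61 and 0.09 in MV411, and 0.31 and 0.37 in SKNO1 (hairpin 1, then hairpin 2). In MOLM-13 it was 0.35 and 0.30 without the pair. Medians of all genes lay between -0.02 and 0.07 in these comparisons. In the same comparisons the cyclase, phosphodiesterase, receptor, anchoring protein and CREB factor lists had medians from -0.31 to 0.40, and the 3 lists with at most 5 genes tested had medians from -0.68 to 1.00.

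Cyclases, G proteins and other phosphodiesterases moved in both directions. Among cyclases, ADCY6 rose with hairpin 2 in MV411, by 1.73 ± 0.26 (adjusted p = 0.0014), and in SKNO1, by 1.00 ± 0.27 (adjusted p = 0.031). With hairpin 2 in MV411, ADCY1 fell (-1.48 ± 0.30, adjusted p = 0.0061), as did ADCY3 (-0.46 ± 0.12, adjusted p = 0.026). The G protein gene GNAI1 fell with hairpin 1 in MV411 (-2.27 ± 0.44, adjusted p = 0.013). ADCY4 and ADCY7 rose in MOLM-13 with the hairpins pooled, by 1.12 ± 0.21 (adjusted p = 0.0054) and 0.99 ± 0.19 (adjusted p = 0.0056). Without the pair ADCY4 was at 1.19 ± 0.26 (adjusted p = 0.019) and ADCY7 at 0.93 ± 0.20 (adjusted p = 0.017). Among phosphodiesterases, PDE3A and PDE2A rose with hairpin 2 in SKNO1, by 2.02 ± 0.36 (adjusted p = 0.0047) and 2.09 ± 0.41 (adjusted p = 0.0083), and PDE4C, the fourth PDE4 gene, rose with hairpin 2 in MV411 by 1.48 ± 0.45 (adjusted p = 0.041). PDE1A fell with hairpin 2 in SKNO1 (-1.70 ± 0.37, adjusted p = 0.013).

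Anchoring proteins moved in both directions. EZR, which encodes ezrin, a linker of membrane and actin that anchors PKA, fell in MV411 with hairpin 1 (-0.91 ± 0.24, adjusted p = 0.048) and hairpin 2 (-1.16 ± 0.24, adjusted p = 0.0076), and in MOLM-13 with the hairpins pooled (-0.87 ± 0.13, adjusted p = 0.0014; -0.89 ± 0.16, adjusted p = 0.0085 without the pair). AKAP13 rose with hairpin 2 in MV411 (0.82 ± 0.13, adjusted p = 0.0018) and SKNO1 (1.03 ± 0.19, adjusted p = 0.0067). AKAP1, which anchors PKA at mitochondria, fell with hairpin 2 in MV411 (-0.65 ± 0.14, adjusted p = 0.0094) and SKNO1 (-0.93 ± 0.16, adjusted p = 0.0045). PRKX, a further cyclic AMP-dependent catalytic kinase, fell with hairpin 2 in MV411, by -0.49 ± 0.15 (adjusted p = 0.048).

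Of the CREB targets, ICAM1, an adhesion molecule, rose with hairpin 2 in MV411 (1.496 ± 0.223, adjusted p = 0.0013) and SKNO1 (1.06 ± 0.15, adjusted p = 0.0016), and in MOLM-13 with the hairpins pooled (1.86 ± 0.34, adjusted p = 0.0047; 1.96 ± 0.30, adjusted p = 0.0045 without the pair). RGS2 and EGR1, both immediate early genes, rose with hairpin 1 in MV411, by 2.84 ± 0.39 (adjusted p = 0.0034) and 1.97 ± 0.30 (adjusted p = 0.0047). CCNA2, the S and G2 phase cyclin A2, fell in MOLM-13 with the hairpins pooled (-1.96 ± 0.18, adjusted p = 8.1e-05; -1.90 ± 0.21, adjusted p = 0.0014 without the pair) and in MV411 with hairpin 1 (-2.57 ± 0.56, adjusted p = 0.020) and hairpin 2 (-1.78 ± 0.54, adjusted p = 0.041).

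Genes with the most similar pattern were found by Pearson r of log2 CPM over 27 libraries among 10253 genes, with no test. Relative to the mean of each line, PRKAR2B was closest to SPG21 (r = 0.91), RRAGD (0.91) and CPD (0.88). RRAGD had r with PRKAR2B of 1.00 in MOLM-13, 0.97 in MV411 and 0.78 in SKNO1 (9 libraries each). It had 60.7, 20.8 and 18.9 CPM in MOLM-13 libraries labelled hairpin 1 and 13.8, 32.4 and 73.5 CPM in those labelled hairpin 2, against 30.6, 36.9 and 29.5 CPM with scramble. The replicate 1 libraries sat on the same side for both genes. RRAGD was chosen for its likeness to PRKAR2B in these same libraries, so this adds nothing on the labels. Without removing line means, PRKAR2B was closest to MEGF9 (0.84), NFXL1 (0.84) and NDRG2 (0.81). NDRG2 had r = -0.72 within SKNO1. TCACGTG also lay in the windows of MEGF9 and of SPG21, 1 of 2, and in none of the windows of NFXL1, NDRG2 or CPD. RRAGD had no window to search. Of all 27305 genes with a window, 4.49% hold the motif in any of theirs, and nothing is read from these matches.

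PDE4B was closest to DAPP1 (r = 0.93), MAP3K8 (0.92) and BIRC3 (0.90) relative to line means, and to BIRC3 (0.93), IL1B (0.92) and NFKBIA (0.91) without removing them. DAPP1 had r of 0.96, 0.95 and 0.92 with PDE4B within MOLM-13, MV411 and SKNO1, while NFKBIA had 0.31 within SKNO1. These libraries share lines, scramble controls and scaling, and a correlation says nothing of shared control.

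**Figure D5:**
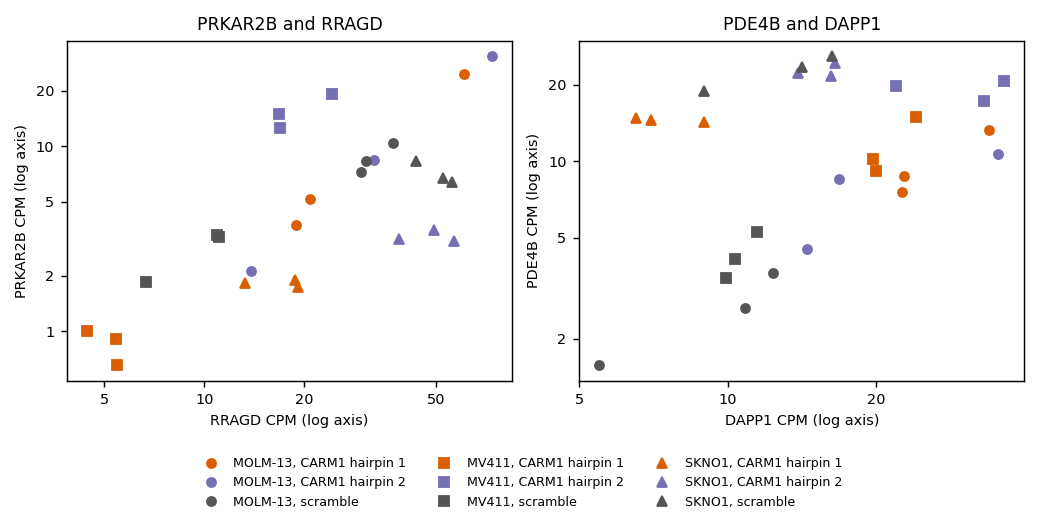
CPM of PRKAR2B against RRAGD and of PDE4B against DAPP1 (log axes), 1 point per library, with symbols for lines and colours for hairpins. PRKAR2B and RRAGD are highest in the MOLM-13 libraries labelled hairpin 1 replicate 1 and hairpin 2 replicate 3, at 24.7 and 30.7 CPM of PRKAR2B and 60.7 and 73.5 CPM of RRAGD.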

How the data were processed

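Per the submitters' processing notes, the authors used STAR 2.5.3, RSEM (version not given) and GRCh38.p7. The deposited values are RSEM expected counts, not normalized. Per the labels' protocols, libraries were TruSeq Total Stranded with Ribo-Zero depletion. After rounding to whole numbers, tests were run with edgeR 4.0.16 (R 4.3.3), using filterByExpr (minimum count 10, minimum total 15), TMM, quasi-likelihood F-test, and two-sided p adjusted by Benjamini-Hochberg over all 17732 to 21262 genes tested, with the threshold at 0.05. DESeq2 1.42.0 and limma 3.58.1 were alternatives. Fits used the 9 libraries of a line, or all 27 with line as a term. Log2 CPM used a prior count of 2. Exon lengths are unions of GENCODE 29 exons, and promoter windows are from RefSeq (GRCh38.p14). Members and lists were chosen with earlier results of these data known. Beyond the 9 genes and CARM1, the genes named were, per list, comparison and direction, at most 2 with the smallest p, of which the text gives a part; 1 gene that the rule names is not reported here. Same-numbered libraries of MV411 deviated together in all 9 pairs (r at least 0.14, median 0.38). Other pairs had a median r of -0.13, although hairpin 2 replicate 3 and scramble replicate 1 had 0.56. The numbers may therefore pair the samples in MV411, but this is not settled, and the labels do not say what they mark. The main fits, those of MV411 included, did not use this possible pairing. With the replicate numbers as a block, 12.6% of all genes tested were called with hairpin 1 in MV411 and 27.3% with hairpin 2. In the main fit these shares were 6.51% and 18.6%. Counts vary by sampling as well as by replicate, and each group had 3 libraries.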

Additional observations from a re-analysis of the deposited data

Results flagged for a closer look

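A lone library stood apart in 3 of 27 groups of 6 knockdown libraries. The measure was its gap to the nearest library over the whole range on the log2 scale, with 0.625 as the limit. Chance flags about 1 in 20 such groups. For PRKAR1A in SKNO1, hairpin 1 replicate 1 (110 CPM) reached 0.627. For PRKACB (25.3 CPM) and PDE4A (4.15 CPM) in MOLM-13, the library labelled hairpin 2 replicate 2 reached 0.818 and 0.736.

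Some effects moved in opposite directions between lines in every library, and the difference between lines was not tested. With hairpin 2, PRKAR2B was at 2.45 over scramble in MV411 and at -1.15 in SKNO1 (log2). With hairpin 1, PDE4B was at 1.92 in MOLM-13 and 1.40 in MV411, against -0.66 in SKNO1 (log2). SKNO1 alone was grown with GM-CSF, so line and supplement cannot be told apart.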

How the results depend on the processing

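No called fold change reversed under DESeq2, limma-voom, RLE scaling, no filter, structured RNAs left out, a replicate block, separate hairpins or 1 library left out. PRKAR2B with hairpin 1 in MOLM-13, not called, changed sign without the 2 hairpin libraries of replicate 1 (0.36 with them, -0.97 without). Numbers of called genes that moved are these, with the share of all genes called in brackets. Shares moved with the setting too, and no result about the set is read from these counts. Shares for fits without 1 library are not listed. Hairpins pooled in MOLM-13: 0 (15.6%), but 1 with limma-voom (15.6%) and 1 with the replicate block (15.2%), and 0 to 1 without 1 library. Hairpins pooled in MV411: 0 (5.43%), but 1 with DESeq2 (9.95%) and 1 with separate hairpins (12.3%). Hairpins pooled in SKNO1: 0 (0.0434%), but 1 with no filter (0.31%), 1 with DESeq2 (3.74%) and 1 with separate hairpins (3.94%), and 0 to 1 without 1 library. The 3 lines combined: 1 (19.9%), but 2 with the replicate block (19.5%) and 2 without the MOLM-13 pair (16.7%), and 1 to 2 without 1 library. Hairpin 1 over scramble in MOLM-13: 0 (6.38%), but 1 with no filter (5.71%) and 1 with DESeq2 (11.5%), and 0 to 1 without 1 library. Hairpin 2 over scramble in MOLM-13: 0 (9.42%), and 0 to 1 without 1 library. Hairpin 1 in MV411: 0 (6.51%), but 1 with DESeq2 (10.2%) and 1 with the replicate block (12.6%), and 0 to 1 without 1 library. Hairpin 2 in MV411: 3 (18.6%), but 2 with RLE scaling (18.4%) and 4 with no filter (10.9%), and 1 to 4 without 1 library. Hairpin 1 in SKNO1: 1 (0.532%), but 2 with no filter (2.24%), 2 with DESeq2 (5.28%) and 2 with the replicate block (2.49%). Hairpin 2 in SKNO1: 1 (11.2%), but 2 with DESeq2 (15.6%), and 1 to 2 without 1 library. Hairpin 2 over hairpin 1 in MV411 chose the set, so no count of called genes is given for it. Hairpin 2 over hairpin 1 in SKNO1: 1 (9.52%), but 2 with no filter (7.08%), 3 with DESeq2 (13.5%) and 2 with the replicate block (12.8%), and 0 to 2 without 1 library. The causes were not tested. Same-numbered libraries correlated over 0.1 in 5 of 9 pairs in MOLM-13 and 5 of 9 in SKNO1. Their median r was 0.22 in both lines, against -0.02 in MOLM-13 and -0.06 in SKNO1 for other pairs. Whether the numbers pair the samples in these lines, as in MV411, is left undecided. Counts fell as low as 23 for PDE4D and 20 for PRKAR2B in MV411 and 25 for PDE4A in MOLM-13, which limits precision there.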
